A study of Mus musculus with 36 samples.

Results

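Genes of the lysosome, namely the hydrolases, the membrane proteins and the proton pump that acidifies it, were followed in AΦ (alveolar macrophages) and monocytes sorted from mouse lungs. The set is 42 genes named by symbol, of the 27562 genes in the FPKM table. They are the 16 genes of the proton pump (6 of its V0 sector, 8 of its V1 sector and 2 accessory proteins), 7 other membrane proteins, 10 glycosidases or sulfatases, 4 lipid hydrolases or peptidases, 4 activators or carriers, and the regulator Tfeb. All 42 had values in the 36 libraries, and only Atp6v0d2 had a library listed at 0.

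The mice were chimeras, labelled with the strain C57BL/6. Male C57BL/6J recipients (CD45.2), 7 to 8 weeks of age at the transplant, had their chests shielded with lead, were lethally irradiated and given busulfan, and received marrow of B6.SJL-Ptprca Pepcb/BoyJ donors (CD45.1), so every group shares this treatment. They then breathed filtered air (FA) or concentrated fine particles (PM2.5) for 4-weeks or 32-weeks, and each of the 12 groups had 3 libraries, numbered 0, 1 and 2, each from 1 mouse. By the study's methods 3 mice of each exposure and time were taken for sequencing, so libraries of the same exposure and time can share mice, while the labels do not say whether a number marks a mouse, and the p-values treat the libraries as independent. AΦ were sorted as CD64+ CD11c-high CD11b-low cells and monocytes as Ly6G- MHC II- CD64-low CD11b-high cells. TR-AΦ carry CD45.2 of the shielded recipients, and BM-AΦ carry CD45.1 of the marrow donors. At 4-weeks only CD45.2 cells were sequenced. The monocytes of 32-weeks are labelled Mono1 and Mono2. Here Mono1 is taken as CD45.1 and Mono2 as CD45.2, following the supplement's key to the AΦ labels, and the labels themselves do not state the origin. TR-AΦ at 4-weeks and at 32-weeks, and likewise CD45.2 monocytes, differ in the age of the mouse, the length of exposure and the time since transplantation. These cannot be told apart.

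Lysosomes are the compartment in which macrophages digest what they take up. The V-ATPase pumps protons into them, with a V1 sector that splits ATP on the cytosolic side and a V0 sector that forms the proton channel in the membrane, and the low pH activates the hydrolases. Small carrier proteins lift lipids out of the membrane for the enzymes or pass cholesterol on. TFEB, a transcription factor of the MiT family, turns on many lysosomal genes through a palindrome called the CLEAR element, built around CACGTG. AΦ are known for clearing surfactant and inhaled particles.

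The promoters of the pump and channel genes that hold TCACGTGA are shown because the set is often described as a TFEB network. RefSeq promoters (build GRCm38.p6, 250 bases before to 50 after the start) matched 34 of the 42 genes. TCACGTGA, which reads the same on both strands, was in 4 of the 34 (11.8%), against 1.12% of 27025 mouse genes and 0.974% of their 32851 promoters of the same length. CACGTG, the core of that motif and therefore also counted in those 4, was in 9 of the 34 (26.5%) against 8.09% of genes and 7.15% of promoters. A gene was counted when any of its promoters held the letters. The others with CACGTG were Atp6v0b, Gaa, Glb1, Lamp1 and Naglu. The longest form searched was TCACGTGA with a G before it and a C after it. It was in 0 of the 34, against 0.37% of the 27025 genes and 0.326% of their promoters. At so low a share over all genes, 34 genes are too few to tell the set from the rest for this form. All matches given here are therefore to the shorter forms, and which form TFEB uses was not tested. A match of letters is a description of the window and not a binding site. In the sequences below, which run from 150 bases before to 30 bases after the RefSeq start, capitals mark CACGTG, with the T before it and the A after it where the whole TCACGTGA is there. Gm2a, which runs against most of the set in the comparisons that follow, is given beside them and holds no CACGTG. Most of the 34 hold none either. Among them are Atp6v0a1, Cd68 and Grn, which were higher in AΦ in every comparison with monocytes below. A link between the motif and the direction of change was not tested.

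Atp6v0d1 (V0 subunit d1, chr8:105566035-105566214, minus strand): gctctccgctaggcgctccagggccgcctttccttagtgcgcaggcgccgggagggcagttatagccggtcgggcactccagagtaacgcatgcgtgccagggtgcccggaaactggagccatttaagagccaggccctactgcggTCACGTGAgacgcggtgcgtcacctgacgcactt
Atp6v0e (V0 subunit e, chr17:26676246-26676425, plus strand): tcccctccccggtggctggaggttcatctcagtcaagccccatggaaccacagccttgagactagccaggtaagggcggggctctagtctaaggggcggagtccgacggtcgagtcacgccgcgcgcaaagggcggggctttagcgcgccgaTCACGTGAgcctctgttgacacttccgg
Atp6v1a (V1 catalytic subunit A, chr16:44139230-44139409, minus strand): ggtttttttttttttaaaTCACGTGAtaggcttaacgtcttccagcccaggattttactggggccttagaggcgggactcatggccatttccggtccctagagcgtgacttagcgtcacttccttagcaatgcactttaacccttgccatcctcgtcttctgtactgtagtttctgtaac
Mcoln1 (the lysosomal calcium channel mucolipin 1, chr8:3500369-3500548, plus strand): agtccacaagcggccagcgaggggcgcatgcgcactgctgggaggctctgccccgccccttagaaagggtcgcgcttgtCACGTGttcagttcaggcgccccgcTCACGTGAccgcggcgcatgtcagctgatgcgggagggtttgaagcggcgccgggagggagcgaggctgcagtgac
Gm2a (GM2 ganglioside activator, chr11:55097835-55098014, plus strand): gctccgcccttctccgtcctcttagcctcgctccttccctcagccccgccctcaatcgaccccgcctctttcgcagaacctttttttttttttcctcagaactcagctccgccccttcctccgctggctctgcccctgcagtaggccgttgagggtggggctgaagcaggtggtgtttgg

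The values are FPKM (fragments per unit of transcript length, scaled to the mapped fragments of the library), which are per length and can be compared between genes, but the read depth behind them is unknown. The comparisons used limma on values of log2(FPKM + 1), a scale that understates the change of genes with low FPKM, and a gene was called at a Benjamini-Hochberg adjusted p under 0.05 over all genes tested. The total FPKM per library ranged from 1839580 to 2580780 in AΦ (mean 2155950) and from 2320650 to 3339020 in monocytes (mean 2663090). The total thus differed between the cell types, which bears on small differences between them. The sort was checked with marker lists. Of 15 listed AΦ markers 14 were in the table, and their summed level was 6797 to 14352 FPKM in AΦ and 310 to 1693 FPKM in monocytes. The 12 monocyte markers summed to 107 to 623 FPKM in AΦ and 2132 to 6177 FPKM in monocytes. No marker of either list was at 0 in all libraries of a cell type.

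The summed level of the set was higher in AΦ than in monocytes at 32-weeks without overlap, and at 4-weeks the ranges met. The 42 genes summed to 4084 to 5823 FPKM in TR-AΦ at 4-weeks, 5683 to 6718 FPKM in TR-AΦ at 32-weeks and 5335 to 6780 FPKM in BM-AΦ. In monocytes the sums were 3439 to 4228 FPKM in CD45.2 cells at 4-weeks, 3403 to 5154 FPKM in CD45.2 cells at 32-weeks and 3476 to 5072 FPKM in CD45.1 cells. In bulk samples fewer cells of a type and less RNA per cell cannot be told apart. The library numbered 2 had the highest sum in 12 of 12 groups, at 1.09 to 1.39 times the mean of the other libraries of its group, and the library numbered 0 had the lowest in 11. Of the 42 genes, 25 were highest in that library in at least 8 groups, and the median was 8 groups against 5 over 13307 genes. What sets the number 2 apart is not stated in the sources used here and was not tested, and its effect on each count of calls is given with the counts it moved.

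**Figure D1:**
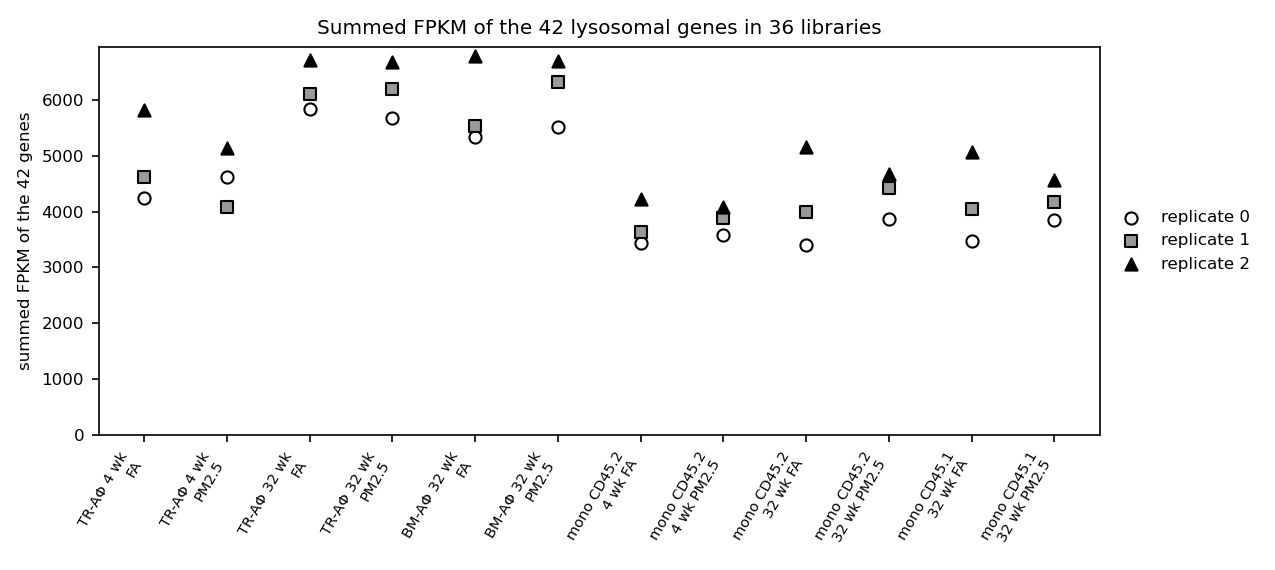
Summed FPKM of the 42 lysosomal genes (y axis, linear from 0) in each of the 36 libraries by group (x axis), with the replicate number as the symbol. The triangles of replicate 2 are highest in all 12 groups, and all TR-AΦ and BM-AΦ libraries of 32-weeks, from 5335 FPKM up, sit above all monocyte libraries.

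The gene with the greatest contrast was Atp6v0d2, which encodes d2, a form of the V0 subunit d with restricted expression that is known from osteoclasts and macrophages and that can take the place of d1 (Atp6v0d1, used by most cells). Atp6v0d2 lies at chr4:19876841-19922605 on the minus strand and Atp6v0d1 at chr8:105524465-105566047 on the minus strand (GRCm38). At 4-weeks the Atp6v0d2 level was 340, 460 and 523 FPKM in TR-AΦ of FA exposed mice and 430, 449 and 503 FPKM in those of PM2.5 exposed mice. The CD45.2 monocytes of the same time were at 0.669, 0 and 0.569 FPKM with FA and at 0.877, 0.816 and 0.484 FPKM with PM2.5. Every AΦ library was thus far above every monocyte library, and the log2 fold change was 8.19 (SE 0.374, limma adjusted p 5.55e-16).

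At 32-weeks the lowest, median and highest Atp6v0d2 levels were 522, 740 and 836 FPKM in TR-AΦ and 460, 721 and 765 FPKM in BM-AΦ. CD45.1 monocytes ranged from 0.825 to 16.5 FPKM with a median of 1.82. CD45.2 monocytes stood at 17.5, 15.8 and 12.6 FPKM with FA and at 12.7, 84.1 and 17.7 FPKM with PM2.5. The 6 CD45.2 monocyte libraries of 32-weeks therefore lay above all 6 of 4-weeks, and 1 of them, replicate 1 of the PM2.5 exposed mice, was far above the other five. The log2 fold change of AΦ over monocytes was 7.51 (SE 0.374, limma adjusted p 3.49e-15) for CD45.1 cells and 5.03 (SE 0.374, limma adjusted p 1.19e-11) for CD45.2 cells.

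Atp6v0d1 differed much less. Its lowest, median and highest levels were 87.9, 96.2 and 114 FPKM in TR-AΦ at 4-weeks and 53.4, 57.2 and 84.5 FPKM in the CD45.2 monocytes, a log2 fold change of 0.61 (SE 0.117, limma adjusted p 8.61e-05). The d2 form made up 78.6% to 83.9% of the summed d1 and d2 FPKM in TR-AΦ at 4-weeks, 83.6% to 88.2% in TR-AΦ and 81.2% to 87.8% in BM-AΦ at 32-weeks. In monocytes its part was 0% to 1.5% at 4-weeks, 1.46% to 23.3% in CD45.1 cells and 16.5% to 61.3% in CD45.2 cells at 32-weeks. Without Atp6v0d2 the other 15 pump genes summed to 933 to 1303 FPKM in AΦ and to 569 to 825 FPKM in monocytes, so AΦ remained above monocytes with no overlap.

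**Figure D2:**
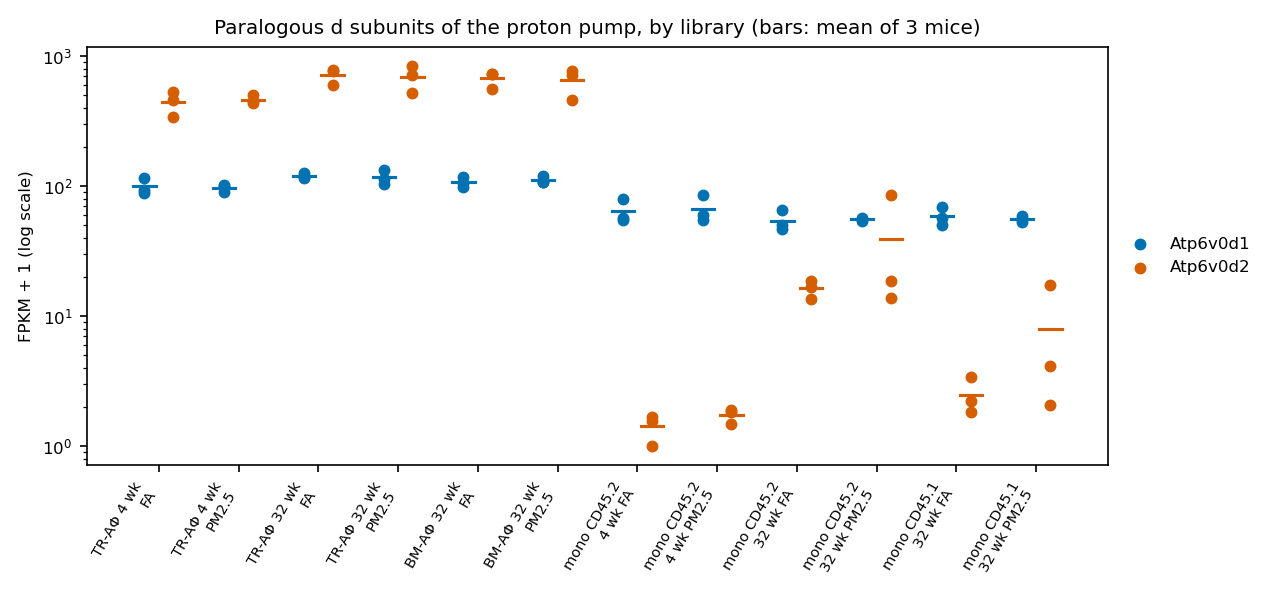
Levels of Atp6v0d2 and Atp6v0d1 (y axis, FPKM + 1 on a log scale) in each library by group (x axis), with short bars for the mean of the 3 mice. Atp6v0d2 is above 340 FPKM in every AΦ library and at most 84.1 FPKM in monocytes, with the CD45.2 monocytes of 32-weeks above those of 4-weeks, while Atp6v0d1 lies between 45.8 and 132 FPKM throughout.

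Across the set, AΦ were compared with monocytes of the same origin and time. At 4-weeks 28 of the 42 genes were higher in TR-AΦ and 4 were lower, where 22.6% of 13307 genes were called higher and 25.5% lower. Their median log2 fold change was 0.66, against -0.02 over all genes. At 32-weeks 29 were higher and 3 lower in TR-AΦ against CD45.2 monocytes (median 0.65, with 23.6% of all genes higher and 23.7% lower). For BM-AΦ against CD45.1 monocytes 35 were higher and 3 lower (median 0.79, with 27.1% of all genes higher and 23.8% lower). The groups did not overlap for 24, 22 and 28 of the higher genes in the 3 comparisons, against 13.6%, 12.9% and 16.1% of all genes. In all 3 comparisons the same 24 genes were higher and Gm2a, Npc2 and Psap were lower, whereas Lamp2 and Tfeb passed in none. Each of these 3 counts stayed within 1.5 times with the libraries numbered 2 left out and under the alternatives of scaling and filtering. With quantile normalization 35 were higher and 2 lower at 4-weeks, where 3255 and 3155 of 13307 genes were. Psap and Man2b1 were then no longer among the lower.

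The pump genes were among the higher ones. At 4-weeks 5 of 6 V0 genes and 5 of 8 V1 genes were higher, and neither of the accessory genes Atp6ap1 and Atp6ap2 passed. At 32-weeks 6 of 6 V0 and 7 of 8 V1 genes were higher in TR-AΦ, and 6 of 6 and 8 of 8 in BM-AΦ, where both accessory genes passed too. After Atp6v0d2 the V0 gene with the next highest difference at 4-weeks was Atp6v0a1, the a1 subunit of the proton channel (chr11:101009452-101063719, plus strand). It was at 20.3, 23.2 and 27.1 FPKM (lowest, median, highest) in TR-AΦ and at 5.94, 7.26 and 11 FPKM in monocytes at 4-weeks (log2 fold change 1.49, SE 0.195, limma adjusted p 3.23e-07). No monocyte library reached the lowest AΦ library. Atp6v0e, a small membrane subunit, had a mean of 170 ± 25.0 FPKM (SD, n = 6) in TR-AΦ against 86.7 ± 23.0 FPKM in monocytes (log2 fold change 0.99, limma adjusted p 2.19e-06).

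In the V1 sector Atp6v1b2, the B subunit found in most cells, was at 66.1, 79.0 and 104 FPKM in TR-AΦ at 4-weeks and at 43.2, 49.0 and 57.5 FPKM in monocytes. At 32-weeks it was at 88.6, 101 and 115 FPKM in TR-AΦ and at 30.6, 43.1 and 56 FPKM in CD45.2 monocytes. The log2 fold change was 0.65 (SE 0.121, limma adjusted p 6.23e-05) at 4-weeks and 1.26 (SE 0.121, limma adjusted p 1.74e-09) at 32-weeks, with no overlap at either time. Atp6v1g1, a subunit of the peripheral stalk, had log2 fold changes of 0.94, 1.06 and 1.13 in the 3 comparisons. The catalytic subunit gene Atp6v1a passed only against CD45.1 monocytes (0.61, limma adjusted p 0.00853), and it had log2 fold changes of 0.19 (limma adjusted p 0.436) and 0.44 (limma adjusted p 0.0604) against CD45.2 monocytes at 4-weeks and 32-weeks. Atp6v1h shares exon sequence with Rgs20, and Lamp1, Npc1, Ppt1 and Glb1 also overlap exons of a neighbour, Glb1 on its own strand, so their values are less certain. The deposited loci of Galns, Atp6v0c, Ppt1 and Lamp1 end 1734259, 39685, 26881 and 25282 bases past the GENCODE M21 end of the gene. What else those loci take in was not tested, so these values are less certain too.

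**Figure D3:**
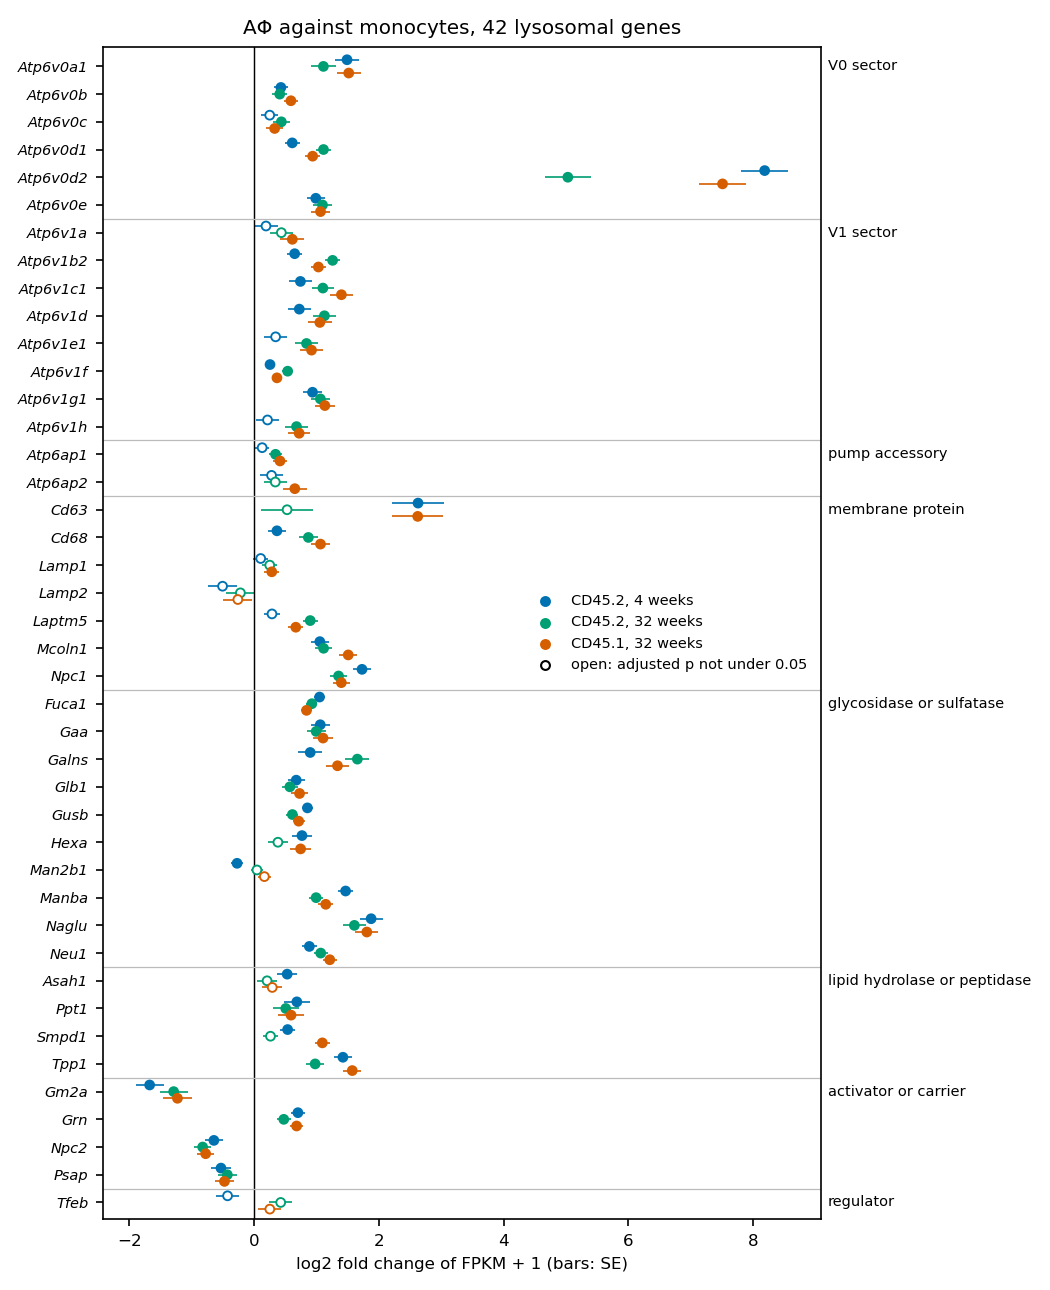
Log2 fold changes of AΦ over monocytes (x axis, of FPKM + 1, bars are SE) for the 42 genes by role (y axis), for CD45.2 cells at 4-weeks and 32-weeks and CD45.1 cells at 32-weeks, with filled points for an adjusted p under 0.05. Most points lie to the right of 0, Atp6v0d2 lies farthest right at 5.03 to 8.19, and Gm2a, Npc2 and Psap lie left of 0 in all 3 comparisons.

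Nearly all glycosidases and sulfatases, the enzymes that take sugars and sulfates off glycoproteins, glycolipids and glycosaminoglycans, were higher in AΦ. Of the 10, 9 were higher at 4-weeks, 8 against CD45.2 monocytes at 32-weeks and 9 against CD45.1 monocytes. Naglu, the heparan sulfate hydrolase that lies next to Atp6v0a1 on chromosome 11, was at 16.9, 20.1 and 28.9 FPKM in TR-AΦ and at 3.45, 4.85 and 8.17 FPKM in monocytes at 4-weeks (log2 fold change 1.88, SE 0.186, limma adjusted p 2.38e-09). At 32-weeks Naglu was at 27.9, 31.4 and 34.7 FPKM in TR-AΦ and 6.76, 9.03 and 16.7 FPKM in CD45.2 monocytes, and the log2 fold changes were 1.61 for CD45.2 and 1.81 for CD45.1 cells. No AΦ library overlapped a monocyte library in any of the 3 comparisons. Galns, a sulfatase for keratan sulfate, was the hydrolase with the largest difference from CD45.2 monocytes at 32-weeks, at 16.8, 21.2 and 23.2 FPKM in TR-AΦ and 3.98, 5.70 and 9.06 FPKM in monocytes (log2 fold change 1.65, SE 0.192, limma adjusted p 4.54e-08). Manba, the beta-mannosidase, was at 16.5 ± 1.8 FPKM (SD, n = 6) in TR-AΦ and 5.35 ± 0.971 FPKM in monocytes at 4-weeks (log2 fold change 1.47, limma adjusted p 3.73e-11).

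Man2b1, an alpha-mannosidase, was the exception at 4-weeks, with 35.2 ± 5.39 FPKM in TR-AΦ and 42.5 ± 4.77 FPKM in monocytes (log2 fold change -0.27, limma adjusted p 0.026, groups overlapping), a call that was lost with any of 6 of the 12 libraries left out. It did not pass at 32-weeks, with 0.04 (limma adjusted p 0.756) and 0.16 (limma adjusted p 0.18). Of the lipid hydrolases and peptidases, 4 of 4 were higher at 4-weeks and 2 and 3 at 32-weeks. Tpp1, a lysosomal tripeptidyl peptidase, was at 53.8, 69.7 and 90.0 FPKM in TR-AΦ and at 21.5, 24.9 and 27.9 FPKM in monocytes at 4-weeks, with no overlap (log2 fold change 1.42, SE 0.144, limma adjusted p 3.65e-09). At 32-weeks it was at 75.2, 80.1 and 105 FPKM in BM-AΦ and 23.4, 28.5 and 32.1 FPKM in CD45.1 monocytes (log2 fold change 1.57, limma adjusted p 6.83e-10).

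Membrane proteins were mixed. Npc1, which exports cholesterol from the lysosome, was at 64.8, 75.8 and 84.5 FPKM in TR-AΦ at 4-weeks and at 18.9, 21.7 and 24.3 FPKM in monocytes (log2 fold change 1.73, SE 0.141, limma adjusted p 5.82e-11). At 32-weeks it was at 84.4, 92.0 and 99.3 FPKM in TR-AΦ and 28.3, 32.8 and 50.2 FPKM in CD45.2 monocytes (log2 fold change 1.35, limma adjusted p 6.84e-09). The channel gene Mcoln1 was at 8.18 ± 1.77 FPKM in TR-AΦ and 3.45 ± 0.948 FPKM in monocytes (log2 fold change 1.05, limma adjusted p 5.31e-07). Both genes were separated without overlap in all 3 comparisons.

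The major coat proteins of the lysosomal membrane gave small differences or none that passed. Lamp1 was at 224, 270 and 337 FPKM (lowest, median, highest) in TR-AΦ and at 225, 256 and 267 FPKM in monocytes at 4-weeks, with a log2 fold change of 0.11 (limma adjusted p 0.494). It had 0.25 (limma adjusted p 0.0846) and 0.28 (limma adjusted p 0.0478) in CD45.2 and CD45.1 cells at 32-weeks. With quantile normalization Lamp1 did pass in CD45.2 cells, at 0.54 at 4-weeks and 0.52 at 32-weeks, and the call in CD45.1 cells was lost with any of 7 of the 12 libraries left out. Lamp2 had log2 fold changes of -0.51, -0.22 and -0.26, none of which passed (limma adjusted p 0.0726, 0.46 and 0.363). Cd68, a macrophage member of the same family, was higher in AΦ in all 3 comparisons, by 0.37, 0.87 and 1.06, and at 4-weeks its levels overlapped, at 334 to 622 FPKM in TR-AΦ and 286 to 423 FPKM in monocytes. That call at 4-weeks was lost with any of 7 of the 12 libraries left out (limma adjusted p up to 0.165).

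Cd63, a tetraspanin of late endosomes and lysosomes (chr10:128900989-128912822, plus strand), differed least between AΦ and monocytes in CD45.2 cells of 32-weeks. In TR-AΦ it was at 7.12, 13.1 and 22.9 FPKM at 4-weeks and at 13.5, 21.1 and 30.6 FPKM at 32-weeks. CD45.2 monocytes at 4-weeks were at 3.44, 1.49 and 0.531 FPKM with FA and at 2.32, 1.07 and 0.305 FPKM with PM2.5. At 32-weeks they were at 25.3, 16.6 and 9.82 FPKM with FA and at 9.99, 23.3 and 8.38 FPKM with PM2.5, overlapping the TR-AΦ of that time. CD45.1 monocytes were at 8.19, 1.34 and 0.536 FPKM with FA and at 4.07, 9.22 and 2.87 FPKM with PM2.5, below all BM-AΦ libraries (14.8, 28.6 and 40.8 FPKM). The log2 fold change of AΦ over monocytes was 2.63 (SE 0.411, limma adjusted p 5.35e-06) at 4-weeks, 0.53 (limma adjusted p 0.306) for CD45.2 cells at 32-weeks and 2.62 (limma adjusted p 5.73e-06) for CD45.1 cells.

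Of the 4 carriers and activators, Gm2a, Npc2 and Psap were lower in AΦ and Grn was higher. Gm2a, which presents GM2 ganglioside to hexosaminidase (chr11:55098115-55113029, plus strand), was at 50.1, 64.1 and 98.7 FPKM in TR-AΦ and at 184, 204 and 295 FPKM in monocytes at 4-weeks. The lowest monocyte library was above the highest AΦ library, and the log2 fold change was -1.68 (SE 0.226, limma adjusted p 5.61e-07). At 32-weeks it was -1.29 (limma adjusted p 2.92e-05, overlapping) for CD45.2 cells and -1.23 (limma adjusted p 5.18e-05, no overlap) for CD45.1 cells. Hexa, a subunit of the hexosaminidase that Gm2a serves, was higher in TR-AΦ at 4-weeks (102 ± 25.1 against 58.6 ± 7.29 FPKM, SD, n = 6, log2 fold change 0.77, limma adjusted p 0.000277). At 32-weeks Hexa had 0.74 (limma adjusted p 0.000377) in CD45.1 cells and 0.38 (limma adjusted p 0.0554), which did not pass, in CD45.2 cells.

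Npc2, which hands cholesterol to Npc1, was at 65.8, 71.6 and 93.2 FPKM in TR-AΦ and at 95.5, 113 and 147 FPKM in monocytes at 4-weeks (log2 fold change -0.65, SE 0.14, limma adjusted p 0.000363). It was lower in AΦ without overlap in all 3 comparisons, the opposite direction to Npc1. Psap, the precursor of the saposins that help degrade sphingolipids, had a mean of 508 ± 75.6 FPKM in TR-AΦ and 733 ± 88.2 FPKM in monocytes at 4-weeks (SD, n = 6, log2 fold change -0.53, limma adjusted p 0.00623, overlapping), and -0.43 and -0.48 at 32-weeks. With quantile normalization Psap passed in none of the 3 (-0.16, -0.14 and -0.05). Grn, progranulin, was higher in AΦ in all 3 comparisons (0.70, 0.48 and 0.68).

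Tfeb (chr17:47737030-47792419, plus strand) did not pass in any of these 3 comparisons. It was at 6.19, 9.73 and 12.4 FPKM in TR-AΦ and at 10.8, 12.8 and 16.0 FPKM in monocytes at 4-weeks, with a log2 fold change of -0.43 (limma adjusted p 0.0559). At 32-weeks its log2 fold changes were 0.43 (limma adjusted p 0.0572) for CD45.2 cells and 0.25 (limma adjusted p 0.263) for CD45.1 cells, and all groups overlapped.

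Other genes of the pathway came from 6 lists of lysosomal, sorting and autophagy genes that held none of the 42. Of 71 tested, 34 were higher and 10 lower in TR-AΦ at 4-weeks, 33 and 9 in TR-AΦ at 32-weeks, and 37 and 9 in BM-AΦ. At 4-weeks 11 of 20 other hydrolases were higher and 3 lower, as were 5 and 1 of 14 other membrane proteins, 5 and 2 of 9 genes of mannose 6-phosphate sorting, 6 and 2 of 15 genes of the MiT family and of mTORC1 on lysosomes, and 7 and 2 of 11 autophagy genes. None of the 2 other pump genes tested passed. Tfec and Mitf, relatives of Tfeb, were at 52.4 ± 5.77 and 26.8 ± 5.11 FPKM in TR-AΦ at 4-weeks, against 4.06 ± 3.69 and 7.46 ± 1.46 FPKM in monocytes (SD, n = 6). Their log2 fold changes were 3.71 (limma adjusted p 1.62e-08) and 1.71 (limma adjusted p 9.12e-08).

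Whether the difference between AΦ and monocytes changed with time was tested as an interaction in CD45.2 cells. It passed for 5 of the 42 genes, 3 higher and 2 lower at 32-weeks than at 4-weeks, where 3.53% of all genes were called higher and 4.35% lower. The difference became smaller for Atp6v0d2 (a change of -3.16 on the log2 scale, SE 0.529, limma adjusted p 0.000341) and for Cd63 (-2.10, SE 0.581, limma adjusted p 0.0233). It grew for Laptm5, a lysosomal membrane protein of blood cells (0.61, SE 0.172, limma adjusted p 0.0251), and Atp6v1b2 (0.61, SE 0.172, limma adjusted p 0.0263). For Tfeb it changed sign, from -0.43 at 4-weeks to 0.43 at 32-weeks, and passed at neither time (a change of 0.85, SE 0.258, limma adjusted p 0.0399). With quantile normalization 0 were higher and 5 lower, where 396 and 586 of 13307 genes were. Tfeb, Laptm5 and Atp6v1b2 then did not pass. With the libraries numbered 2 left out 3 genes passed, and Cd63 (adjusted p 0.121) and Tfeb (adjusted p 0.15) did not.

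In CD45.2 monocytes 12 of the 42 genes were higher at 32-weeks than at 4-weeks and 0 lower, where 7.06% of 12856 genes were called higher and 7.83% lower. The number higher was 7 with the libraries numbered 2 left out. It was 19 with quantile normalization, where 983 of 12856 genes were called higher. At an unadjusted p under 0.05, 17 of the 42 passed in limma, where 3517 of 12856 genes did. Of the 17, Tfeb and Atp6v1e1 were lower. The 12 were 2 V0 genes (Atp6v0d2, Atp6v0a1), 5 glycosidases (Naglu, Manba, Gaa, Hexa, Gusb), Tpp1 and Smpd1, the membrane genes Cd63 and Npc1, and Grn, and none of the 8 V1 genes. Tpp1 rose from 21.5, 24.9 and 27.9 FPKM (lowest, median, highest) to 34.5, 42.8 and 67.6 FPKM without overlap (log2 fold change 0.82, SE 0.148, limma adjusted p 0.00211). Grn rose from 70.2, 79.0 and 87.6 FPKM to 108, 121 and 163 FPKM, also without overlap (log2 fold change 0.68, SE 0.118, limma adjusted p 0.00166). Atp6v0d2 and Cd63, whose values are given above, had log2 fold changes of 3.79 (SE 0.485, limma adjusted p 0.000278) and 2.72 (SE 0.455, limma adjusted p 0.00135). Tfeb had a log2 fold change of -0.65 (limma adjusted p 0.0592), and its 6 libraries of 32-weeks, at 4.13 to 10.6 FPKM, all lay below those of 4-weeks, at 10.8 to 16.0 FPKM.

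Markers of some other cells also differed between the times. The 14 AΦ markers summed to 490 to 801 FPKM (median 602) in CD45.2 monocytes at 4-weeks and to 417 to 1693 FPKM (median 650) at 32-weeks, overlapping. The 6 interstitial macrophage markers summed to 2.8 to 406 FPKM at 4-weeks and to 858 to 3290 FPKM at 32-weeks, and the 3 platelet markers to 1.6 to 14.9 FPKM and to 73.0 to 289 FPKM, with no marker of these 3 lists at 0 in all libraries of either group. The 12 monocyte markers summed to 4503 to 6177 FPKM at 4-weeks and to 2132 to 5024 FPKM at 32-weeks. The 9 neutrophil markers summed to 71.3 to 1158 FPKM and to 33.1 to 66.8 FPKM, with Camp, Ly6g and Ngp at 0 in all libraries of 32-weeks. Set against the mean of TR-AΦ at 32-weeks, Atp6v0d2 in the 6 libraries was at 1.79% to 12%, where the AΦ genes Ear1, Plet1, Siglecf and Marco were at 1.37% to 7.64%, 1.36% to 9.33%, 0.98% to 6.49% and 1.13% to 11.4%. For all 5 genes the highest was replicate 1 of the PM2.5 exposed mice. Krt79 and Car4 were at 0.90% to 6.50% and 0.34% to 17.4%, also highest there. At 4-weeks, against TR-AΦ of that time, Atp6v0d2, Ear1, Plet1, Siglecf and Marco were at most 0.19%, 0.31%, 0.33%, 1.56% and 0.42%. Cd63 was at 38.2% to 115% in the 6 libraries of 32-weeks. Its level and the interstitial macrophage sum had the same library order there. They ran from 25.3 and 3290 FPKM (FA replicate 0) to 8.38 and 858 FPKM (PM2.5 replicate 2). In CD45.1 monocytes and at 4-weeks the order was not fully the same. The libraries left out below were not chosen by the interstitial macrophage markers. The part of other cells in these values was not tested. Replicate 1 of the PM2.5 exposed mice was also left out, in CD45.2 and in CD45.1 monocytes of 32-weeks. Its AΦ markers summed to 1693 FPKM in CD45.2 cells, the highest of the monocyte libraries. In CD45.1 cells they summed to 683 FPKM, below the 896 FPKM of PM2.5 replicate 2. The CD45.1 library left out had the highest Atp6v0d2 level of its cells, 16.5 FPKM. With these libraries left out, 8 of the 42 genes were higher at 32-weeks, among them Atp6v0d2 and Cd63. Naglu, Atp6v0a1, Npc1 and Hexa no longer passed. The interaction then passed for Atp6v0d2 alone (-2.75).

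Among monocytes of 32-weeks, CD45.1 cells were set against CD45.2 cells, and 2 of the 42 genes differed, both lower in CD45.1 cells, where 0.591% of all genes were called lower. Atp6v0d2 had a log2 fold change of -2.58 (SE 0.485, limma adjusted p 0.0235). Smpd1, the acid sphingomyelinase (chr7:105554360-105558389, plus strand), was at 4.51, 6.15 and 4.54 FPKM with FA and 5.03, 7.05 and 6.12 FPKM with PM2.5 in CD45.1 cells. In CD45.2 cells it was at 8.47, 8.20 and 8.53 FPKM with FA and 9.17, 8.20 and 7.79 FPKM with PM2.5, above every CD45.1 library (log2 fold change -0.53, SE 0.11, limma adjusted p 0.0416). The AΦ markers summed to 310 to 896 FPKM, the interstitial macrophage markers to 308 to 1022 FPKM and the platelet markers to 6.7 to 33.0 FPKM in CD45.1 cells, ranges that began and ended lower than those of CD45.2 cells at the same time, and the part of other cells was not tested. Neither call remained with the libraries numbered 2 left out, and Smpd1 did not pass with a replicate block within exposure and time (limma adjusted p 0.127). As an interaction, the difference between AΦ and monocytes was larger in CD45.1 than in CD45.2 cells for the same 2 genes, by 2.48 for Atp6v0d2 (SE 0.529, limma adjusted p 0.0138) and 0.83 for Smpd1 (SE 0.173, limma adjusted p 0.0115), where 0.924% of all genes were called higher. Without the libraries numbered 2 these were 2.70 (limma adjusted p 0.181) and 0.67 (limma adjusted p 0.242). The 3 AΦ to monocyte comparisons, both interactions and the monocyte comparisons share libraries.

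The origin of AΦ made no difference that passed. Between BM-AΦ and TR-AΦ at 32-weeks limma called 0 of the 42 genes, where 0.316% of 12665 genes were called, and 3 had an unadjusted p under 0.05, where 7.45% of all genes did. The log2 fold changes ran from -0.42 to 0.36. At the ends stood Gaa, acid alpha-glucosidase, with 17.6 ± 3.63 FPKM in BM-AΦ and 23.6 ± 1.81 FPKM in TR-AΦ (SD, n = 6, limma adjusted p 0.481), and Gm2a with 101 ± 15.1 against 78.2 ± 10.7 FPKM (limma adjusted p 0.645). Atp6v0d2 had -0.10 (limma adjusted p 0.966). The median SE of a log2 fold change between groups of 3 was 0.18 in AΦ.

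In TR-AΦ nearly all of the set lay somewhat higher at 32-weeks than at 4-weeks, though no gene passed within an exposure. Age of the mouse, length of exposure and time since transplantation cannot be told apart here either. With FA 40 of 42 log2 fold changes were above 0 (51.1% of all genes), with a median of 0.26. Limma called 0 of the 42, where 0.782% of all genes were called, and 12 had an unadjusted p under 0.05 (12.1% of all genes). With PM2.5 all 42 were above 0 (53.7% of all genes), with a median of 0.32. Again 0 were called, where 1.05% of all genes were, and 18 had an unadjusted p under 0.05 (15.2%). The groups did not overlap, with 32-weeks higher, for 13 genes with FA (7.62% of all genes) and 19 with PM2.5 (10.1%).

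Atp6v0d2 was at 597, 769 and 781 FPKM at 32-weeks with FA and at 522, 836 and 710 FPKM with PM2.5, all above the 4-weeks libraries of the same exposure (log2 fold changes 0.71, limma adjusted p 0.217, and 0.56, limma adjusted p 0.271). Laptm5 was at 814, 910 and 1073 FPKM at 4-weeks and 1230, 1259 and 1360 FPKM at 32-weeks with FA, and at 909, 671 and 896 against 1197, 1110 and 1243 FPKM with PM2.5. Galns was at 13.7, 10.2 and 17.1 FPKM against 22.5, 21.2 and 17.9 FPKM with FA. In each of these the groups of 4-weeks and 32-weeks did not overlap, and none passed.

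When both exposures were averaged, an analysis chosen after seeing the data, limma called 6 of the 42, all higher at 32-weeks, where 2.56% of all genes were called higher. They were Laptm5 (log2 fold change 0.50, adjusted p 0.018), Galns (0.59, adjusted p 0.0229), Grn (0.45, adjusted p 0.0302), Neu1, a sialidase (0.30, adjusted p 0.0402), Atp6v0d2 (0.63, adjusted p 0.0402) and Naglu (0.51, adjusted p 0.0438). The AΦ markers summed to 6797 to 9527 FPKM at 4-weeks and to 8052 to 13448 FPKM at 32-weeks in the same cells, and the interstitial macrophage markers to 36.4 to 569 and 18.4 to 71.8 FPKM. Their part in the result was not tested.

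**Figure D4:**
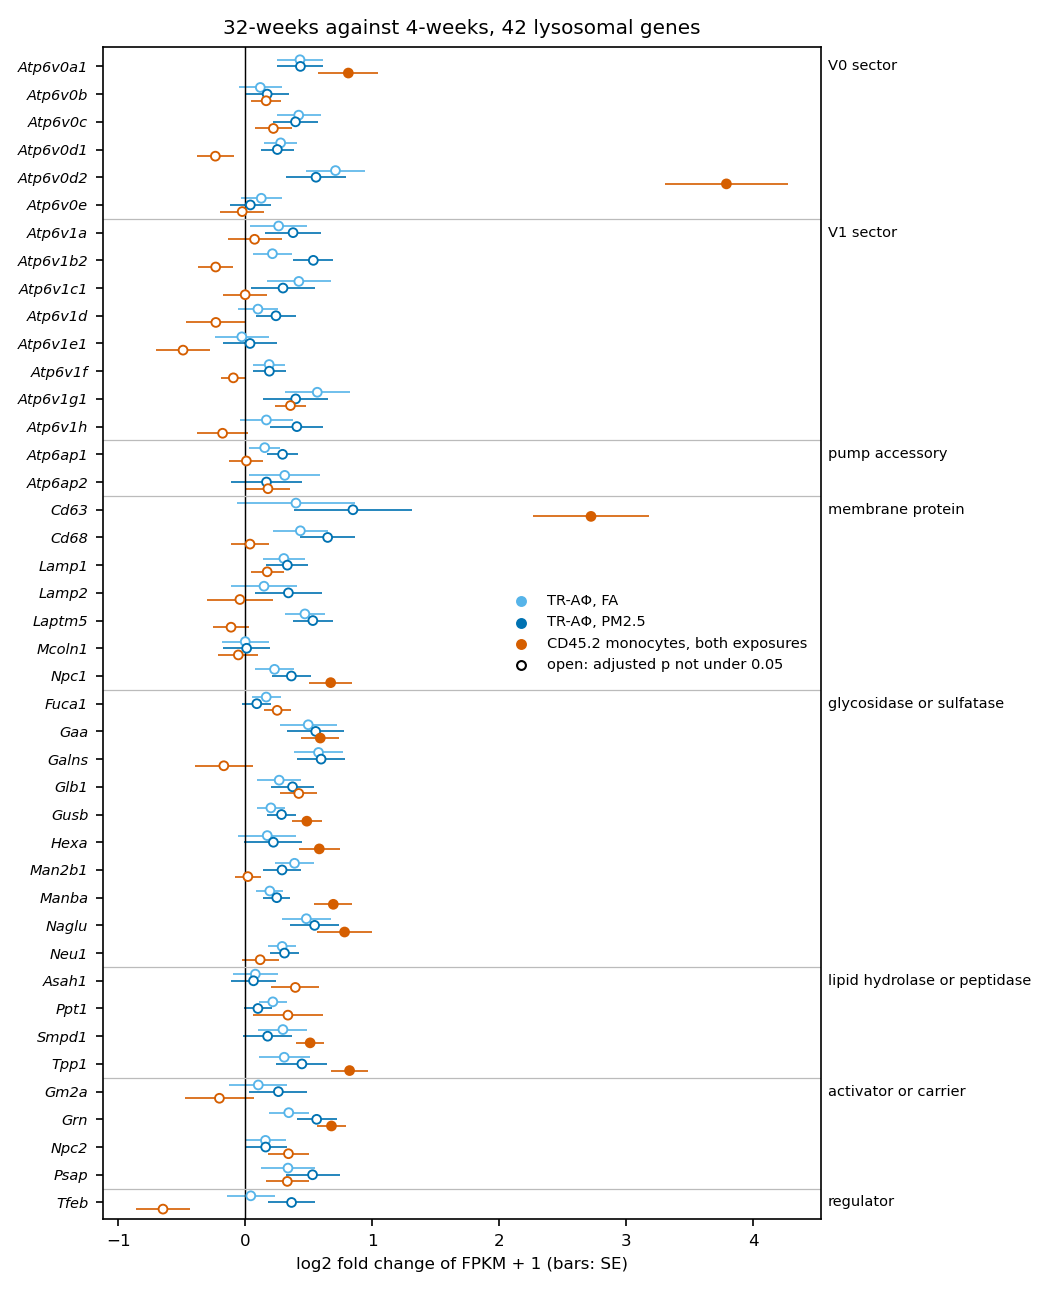
Log2 fold changes of 32-weeks over 4-weeks (x axis, of FPKM + 1, bars are SE) for the 42 genes by role (y axis), in TR-AΦ with FA, in TR-AΦ with PM2.5 and in CD45.2 monocytes over both exposures, with filled points for an adjusted p under 0.05. In TR-AΦ nearly all points lie to the right of 0, 40 with FA and 42 with PM2.5, and all are open, while in monocytes 12 are filled, with Atp6v0d2 at 3.79 and Cd63 at 2.72.

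Exposure to PM2.5 was compared with FA in each population, and limma called 0 of the 42 genes in all 6 comparisons, in every alternative run and with each library left out. In TR-AΦ at 4-weeks, TR-AΦ at 32-weeks and BM-AΦ the genes called over all genes came to 0.0079%, 0% and 0.0158%. At an unadjusted p under 0.05 there were 0 of the 42 in each, where 2.94%, 3.13% and 2.05% of all genes passed. The log2 fold changes ran from -0.33 to 0.13, from -0.24 to 0.29 and from -0.11 to 0.35. In TR-AΦ at 4-weeks Atp6v1h had -0.33, and in BM-AΦ Naglu had 0.31, with 26.7, 24.4 and 29.6 FPKM with FA and 34.8, 33.0 and 32.3 FPKM with PM2.5, groups that did not overlap. The medians were -0.06, -0.02 and 0.06.

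In monocytes the calls over all genes came to 0.00778% at 4-weeks and to 0% in both origins at 32-weeks. Of the 42 genes 0, 1 and 1 had an unadjusted p under 0.05, in CD45.2 monocytes at 4-weeks and in CD45.2 and CD45.1 monocytes at 32-weeks, where 2.12%, 4.25% and 4.74% of all genes did. In CD45.2 monocytes at 32-weeks Atp6v1g1 was at 36.3, 35.2 and 38.5 FPKM with FA and 42.5, 56.8 and 50.6 FPKM with PM2.5 (log2 fold change 0.43). In CD45.1 monocytes Tfeb was at 11.9, 5.11 and 4.50 FPKM with FA and 10.1, 12 and 11.9 FPKM with PM2.5 (log2 fold change 0.70, limma adjusted p 0.946). The widest value in CD45.2 monocytes at 32-weeks, 0.79 for Atp6v0d2 (limma adjusted p 1), came from replicate 1 of the PM2.5 exposed mice, and without that library it was -0.014. In CD45.1 monocytes Atp6v0d2 had 1.14 (limma adjusted p 0.976), where replicate 1 of the PM2.5 exposed mice was at 16.5 FPKM and the other two at 1.06 and 3.10 FPKM, and without that library it was 0.28. The median SE in monocytes was 0.227.

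The effect of PM2.5 was also compared between times in TR-AΦ and between BM-AΦ and TR-AΦ at 32-weeks. Limma called 0 of the 42 genes in either interaction, where 0.0079% and 0.0158% of all genes were called. At an unadjusted p under 0.05 there were also 0 of the 42, where 3% and 1.89% of all genes passed.

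**Figure D5:**
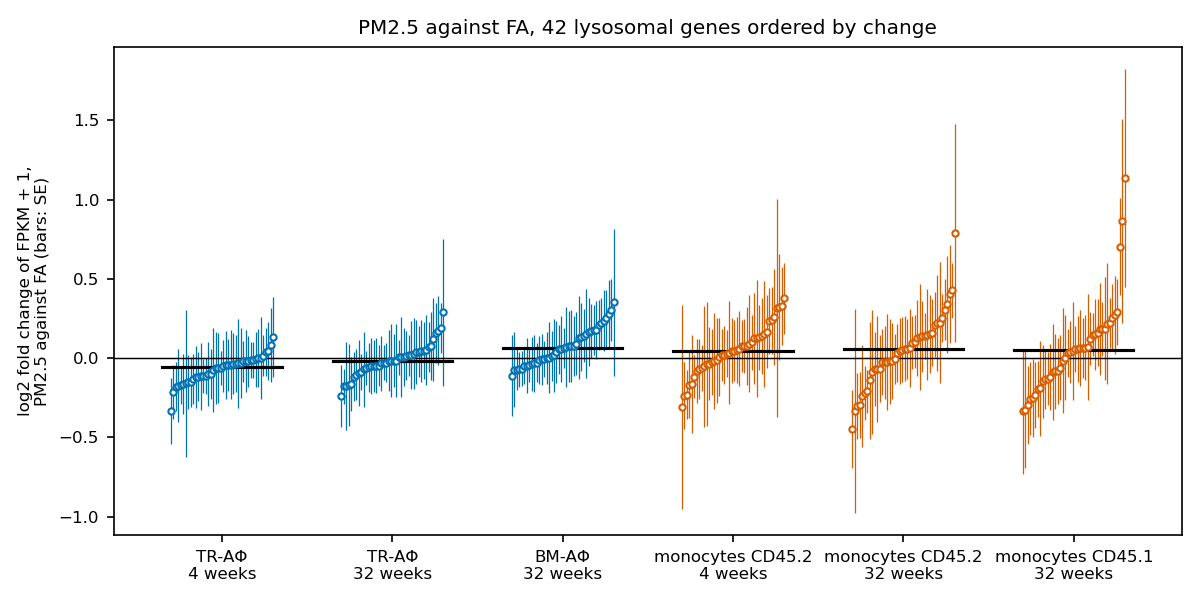
Log2 fold changes of PM2.5 over FA (y axis, of FPKM + 1, bars are SE) for the 42 genes in the 6 populations (x axis), 1 point per gene in order of its value, with a thick line at the median. The points gather around 0 in all populations, with medians from -0.06 to 0.06, and the farthest is Atp6v0d2 at 1.14 in CD45.1 monocytes, where no gene passed.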

How the data were processed

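RNA of sorted AΦ and monocytes was sequenced in 36 libraries, 3 in each of 12 groups. The authors trimmed the reads, aligned them with STAR to mm10 and deposited FPKM per gene from Cufflinks, so counts and read depth were not analysed here and no precision from counting can be given. The strand setting of the counting is not given in the sources used here. Groups came from the labels. Values were put on the scale log2(FPKM + 1), and limma 3.58.1 (R 4.3.3) fitted 1 mean per group with a variance trend. Genes whose mean over the libraries fitted was under 1 FPKM were left out, which kept 12665 genes for AΦ, 12856 for monocytes and 13307 for both. Benjamini-Hochberg adjustment was made per comparison, at 0.05. Gene positions are from GENCODE M21 (GRCm38). The members and the lists were chosen with earlier results of these data known, so their counts are descriptions. Library values were given for the 5 largest non-overlapping calls of each direction in a comparison, for genes past an interaction, and for Tfeb, Atp6v0d1, Atp6v0d2, Lamp1 and Cd68. Of each other list up to 2 genes were named. Further members were chosen after their values were seen. The procedure was tested on simulated data. Alternatives were a pseudocount of 0.1, no filter, quantile normalization, only the libraries compared, a replicate block and leaving out each library. Leaving out the libraries numbered 2, leaving out 1 Mono1 and 1 Mono2 library, and averaging exposures were chosen after seeing the data. The Mono2 library left out had the highest summed AΦ markers of all monocyte libraries. The Mono1 library left out did not have the highest AΦ markers of its cells, but it had their highest Atp6v0d2 level. Figures were drawn with matplotlib 3.10.9.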

Additional observations from a re-analysis of the deposited data

Results flagged for a closer look

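The difference between AΦ and CD45.2 monocytes, tested as an interaction, was not the same at 32-weeks as at 4-weeks for 5 of the 42 genes. Of these 3 were higher and 2 lower, where 3.53% of all genes were called higher and 4.35% lower. In limma the change was -3.16 on the log2 scale for Atp6v0d2 and -2.10 for Cd63, and 0.85 for Tfeb, 0.61 for Laptm5 and 0.61 for Atp6v1b2. With quantile normalization Tfeb, Laptm5 and Atp6v1b2 did not pass. Without the PM2.5 monocyte libraries of 32-weeks numbered 1 only Atp6v0d2 passed. For Atp6v0d2 and Cd63 the CD45.2 monocytes of 32-weeks lay above all those of 4-weeks. For Tfeb they lay below all those of 4-weeks. For Laptm5 and Atp6v1b2 the AΦ means were higher at 32-weeks (1233 ± 81.8 against 879 ± 132 FPKM, and 103 ± 10.0 against 79.6 ± 13.4 FPKM, SD, n = 6). Their monocyte means were 668 ± 117 against 715 ± 55.8 FPKM and 42.9 ± 8.31 against 50 ± 5.05 FPKM, and neither passed in monocytes (limma adjusted p 0.664 for Laptm5 and 0.299 for Atp6v1b2).

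The same difference was larger for CD45.1 than for CD45.2 cells at 32-weeks for Atp6v0d2 (2.48) and Smpd1 (0.83), where 0.924% of all genes were called higher. Neither passed without the libraries numbered 2.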

How the results depend on the processing

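The 3 counts of AΦ against monocytes were 30 to 33, 30 to 33 and 36 to 38 genes with 1 library left out. For the change of that difference with time 5 genes became 8 with a replicate block and 3 without the libraries numbered 2. The count was 1 without the PM2.5 monocyte libraries of 32-weeks numbered 1 (CD45.1 and CD45.2), and 1 to 7 with 1 library left out. It was 1 without PM2.5 exposed CD45.2 monocytes of 32-weeks replicate 1, 2 without any of TR-AΦ of 4-weeks FA replicate 0 or PM2.5 replicate 1 and monocytes of 4-weeks FA or PM2.5 replicate 2, and 3 without TR-AΦ of 32-weeks PM2.5 replicate 0 or CD45.2 monocytes of 32-weeks FA replicate 0. For its change with origin 2 genes became 1 with only the libraries compared and 0 in limma without the libraries numbered 2. CD45.2 monocytes over time gave 19 genes with quantile normalization, 7 without the libraries numbered 2 and 9 to 13 with 1 library left out, against 12. CD45.1 against CD45.2 monocytes gave 0 with a pseudocount of 0.1 and with only the libraries compared, against 2. The count was 1 with no filter and with quantile normalization, and 4 with a replicate block. It was 1 without the PM2.5 libraries numbered 1, 0 without the libraries numbered 2, and 0 to 2 with 1 library left out. The 0 came without CD45.1 monocytes PM2.5 replicate 0 or 2 or CD45.2 monocytes FA replicate 0 or 1, and 1 without CD45.1 monocytes FA replicate 1 or 2 or CD45.2 monocytes FA replicate 2 or PM2.5 replicate 1 or 2. TR-AΦ over time went from 0 to 1 with FA and to 4 with PM2.5 under a replicate block, and to 6 with both exposures averaged. The cause was not tested. Atp6v0d2 changed sign between BM-AΦ and TR-AΦ, from -0.10 to 0.016 without BM-AΦ PM2.5 replicate 0 (range -0.192 to 0.016 with 1 library left out), and for PM2.5 in CD45.2 monocytes at 32-weeks, from 0.79 to -0.014 without PM2.5 replicate 1 (range -0.014 to 1.30). Same-numbered libraries were not taken as paired, as the labels do not say whether a number marks a mouse. Of 162 pairs, some of them counted in more than 1 comparison, 15 had deviations correlated over 0.1 (range -0.088 to 0.21). Of the same pairs 86 correlated best with their own number, more than an even spread over the 3 numbers would give. What same-numbered libraries share was not tested. The replicate block moved no other count by over 1.5 times. With a replicate block within exposure and time, where numbers may mark mice, the AΦ to monocyte counts were 38, 38 and 39, the origin interaction 2, BM-AΦ against TR-AΦ 0, and CD45.1 against CD45.2 monocytes 2, with Cd63 in place of Smpd1 (limma adjusted p 0.127). FPKM give no depth, so small differences of low genes such as Tfeb, Smpd1 and Mcoln1 have an unknown counting error.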

Other observations

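Outside the 42 genes, other lysosomal genes split in the same comparison of AΦ with monocytes. Pla2g15, the lysosomal phospholipase A2, was at 105 ± 9.50 FPKM in TR-AΦ at 4-weeks and 10.1 ± 1.77 FPKM in CD45.2 monocytes (SD, n = 6, log2 fold change 3.27, limma adjusted p 1.55e-16). Sgsh, a heparan sulfatase, was at 0.71 ± 0.454 FPKM in TR-AΦ and 8.5 ± 1.69 FPKM in monocytes (log2 fold change -2.49, limma adjusted p 1.33e-13), the opposite direction to Naglu, which acts on the same substrate. The sorting receptor Sort1 was higher in TR-AΦ (172 ± 22 against 38.9 ± 6.42 FPKM, log2 fold change 2.12, limma adjusted p 4.1e-11), whereas Igf2r, the large mannose 6-phosphate receptor, was lower (0.71 ± 0.495 against 3.49 ± 1.29 FPKM, log2 fold change -1.39, limma adjusted p 0.000804). Tpcn1, a cation channel of the endolysosome, was also lower in TR-AΦ (1.72 ± 1.47 against 11.7 ± 1.97 FPKM, log2 fold change -2.35, limma adjusted p 6.39e-10), the opposite direction to the channel gene Mcoln1. The directions of Pla2g15, Sgsh, Sort1 and Tpcn1 were the same in both comparisons at 32-weeks. Igf2r passed in neither, at -0.34 (limma adjusted p 0.405) for CD45.2 cells and 0.58 (limma adjusted p 0.14) for CD45.1 cells.

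In CD45.2 monocytes Pla2g15 rose from 10.1 ± 1.77 FPKM at 4-weeks to 29.0 ± 9.26 FPKM at 32-weeks (log2 fold change 1.40, limma adjusted p 0.000252) and Mitf from 7.46 ± 1.46 to 17.6 ± 6.17 FPKM (1.09, limma adjusted p 0.00457). The markers of other cells in that comparison are those given for the 42 genes, and their part was not tested.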
